A study of Mus musculus with 8 samples.

Results

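The nuclear genome of the mouse codes for most subunits of the respiratory chain and of ATP synthase, and the transcripts of these subunits were read in liver. Genes were taken by name: the Nduf subunits of complex I, Sdha to Sdhd of complex II, the Uqcr subunits of complex III, the Cox4 to Cox8 subunits of complex IV and the Atp5 subunits of complex V. The pattern found 79 genes with 98 probes, of 16593 genes and 23978 probes that have a symbol on the array. Complex I had 34 of these genes, complex II 3, complex III 8, complex IV 18 and complex V 16. A total of 71 genes (86 probes) passed the detection filter, which asked for a detection p-value under 0.01 throughout at least 1 group, and these are the genes tested among 7257 in all. All 79 symbols matched the RefSeq gene table, where 1 of them, Ndufs5-ps, is a transcribed pseudogene.

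Liver RNA of Balb/c mice aged 2 months was read on 8 Illumina bead arrays, each with 1 sample. The 4 groups were CCl4-treated IL-4/IL-13-/- mice (called the knockout, 3 arrays), CCl4-treated wild-type mice (3 arrays), vehicle-treated IL-4/IL-13-/- mice (1 array) and vehicle-treated wild-type mice (1 array). The knockout lacks Il4 and Il13, the genes of a pair of cytokines of type 2 immunity. CCl4, carbon tetrachloride, injures hepatocytes once their P450 enzymes have made it into a radical. The dose, the route and the time after CCl4 are not given in the sources used here.

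Complexes I, III and IV pump protons across the inner mitochondrial membrane while electrons pass from NADH to oxygen, complex II feeds in electrons from succinate, and complex V uses the proton gradient to make ATP. Mitochondrial DNA codes for a few central subunits of complexes I, III, IV and V, and all other subunits come from the nucleus and are imported. Hepatocytes are rich in mitochondria and meet most of their ATP demand through this chain.

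Many nuclear genes of the chain are known targets of nuclear respiratory factor 1 (NRF-1) and of the ETS factor GABPA, also called NRF-2, and their promoters show what these sites look like. RefSeq promoter windows (GRCm38.p6, 250 bases before to 50 bases after a gene's start, 300 in all) were found for 64 of the 79 genes, with 69 windows. The letters GCGCATGCG, read on both strands and taken as the NRF-1 motif, stood in windows of 7 of the 64 genes (10.9%), against 4.45% of the 5954 tested genes that have a window and 1.95% of all 27025 genes that have one. The letters CCGGAAG, read on both strands and taken as the ETS motif, stood in those of 16 of the 64, against 21.3% of the tested genes and 9.93% of all genes. Both motifs stood in those of 4 of the 64 (6.25%), against 0.924% of the tested genes, and matches of the 2 motifs never overlapped. The 4 genes were Atp5k, Atp5l, Cox6a1 and Uqcr11. A match describes letters in a window and is not a bound site.

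The windows of 4 genes that recur below are shown because they hold each kind of match, with the matches in capitals. Sdhb, at chr4:140961021-140961320 on the plus strand, and Sdhd, at chr9:50603800-50604099 on the minus strand, each hold 1 ETS match, on the opposite strand of the window in Sdhd. Atp5g2, at chr15:102670998-102671297 on the minus strand, holds the NRF-1 letters on both strands, so that the 2 matches overlap. Cox6a1, at chr5:115348909-115349208 on the minus strand, holds the same NRF-1 pair and 1 ETS match.
Sdhb: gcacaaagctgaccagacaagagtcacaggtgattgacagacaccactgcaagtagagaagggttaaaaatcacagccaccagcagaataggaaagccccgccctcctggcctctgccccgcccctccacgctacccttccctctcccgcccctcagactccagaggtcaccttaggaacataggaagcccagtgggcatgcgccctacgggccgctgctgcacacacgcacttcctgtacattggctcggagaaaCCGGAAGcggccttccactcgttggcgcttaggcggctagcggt
Sdhd: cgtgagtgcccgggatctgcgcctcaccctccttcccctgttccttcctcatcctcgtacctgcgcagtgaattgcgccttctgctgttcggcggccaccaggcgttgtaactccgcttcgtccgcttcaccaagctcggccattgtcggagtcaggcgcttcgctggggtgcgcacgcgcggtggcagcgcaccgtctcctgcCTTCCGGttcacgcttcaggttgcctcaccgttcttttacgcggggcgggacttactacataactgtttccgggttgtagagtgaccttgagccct
Atp5g2: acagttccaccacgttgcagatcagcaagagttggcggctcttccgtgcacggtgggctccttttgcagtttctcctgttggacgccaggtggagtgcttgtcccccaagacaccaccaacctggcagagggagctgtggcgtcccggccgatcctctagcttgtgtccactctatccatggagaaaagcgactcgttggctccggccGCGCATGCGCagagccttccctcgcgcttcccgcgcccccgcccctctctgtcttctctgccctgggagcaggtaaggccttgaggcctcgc
Cox6a1: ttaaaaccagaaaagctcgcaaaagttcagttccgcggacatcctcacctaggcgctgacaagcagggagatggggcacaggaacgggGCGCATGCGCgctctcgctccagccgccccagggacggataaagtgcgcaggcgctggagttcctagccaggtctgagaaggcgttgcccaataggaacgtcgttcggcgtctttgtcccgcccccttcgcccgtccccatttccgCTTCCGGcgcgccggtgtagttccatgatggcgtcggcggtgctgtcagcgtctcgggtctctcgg
The windows of Ndufb4, Ndufa7, Atp5o and Cox7a2, which are described below, held neither set of letters.

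Levels are normalized log2 intensities, on which a difference of 1 is a factor of 2, and levels of different probes are not compared. Adjusted p-values come from limma, by the method of Benjamini and Hochberg over all 7257 genes, and a gene is said to have risen or fallen where its adjusted p was under 0.05. No label ties the arrays to different animals, so the p-values cover the spread between arrays alone, and that spread may be technical. The vehicle groups have 1 array each and borrow the spread of the CCl4 arrays. The median raw intensity of an array was 60.9 to 76.9, and an array detected 8899 to 9821 features. Of 8 hepatocyte markers on the array, Apoa1, Ttr, Cps1, Hnf4a and Serpina1a were detected on all 8 arrays, the Alb probe on 4, and Tat and Fgb on none. The markers of skeletal muscle and heart (6), brown fat (3) and testis (2) were detected on 0 arrays.

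Replicate 3 of the CCl4-treated wild type stood apart for these genes. It was the highest of the 3 wild-type CCl4 arrays for 44 of the 71 members (62.0%) and for 22 of the 33 complex I genes, against 33.4% of all tested genes. Its value lay nearer to the knockout CCl4 mean than to the mean of the other wild-type CCl4 arrays for 52 of the 71 members, against 3825 of 7257 genes in all. Over all genes it correlated with the other wild-type CCl4 arrays at 0.977 to 0.983 and with the knockout CCl4 arrays at 0.974 to 0.977, while the other wild-type CCl4 arrays correlated with the knockout ones at 0.962 to 0.968. The median SD of a member was 0.122 among knockout and 0.238 among wild-type CCl4 arrays. The counts of calls between the genotypes are therefore given with and without this array, and so are the medians that it moved by over 1.5 times. Values without it show how far a result rests on this array and are not separate support.

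**Figure D1:**
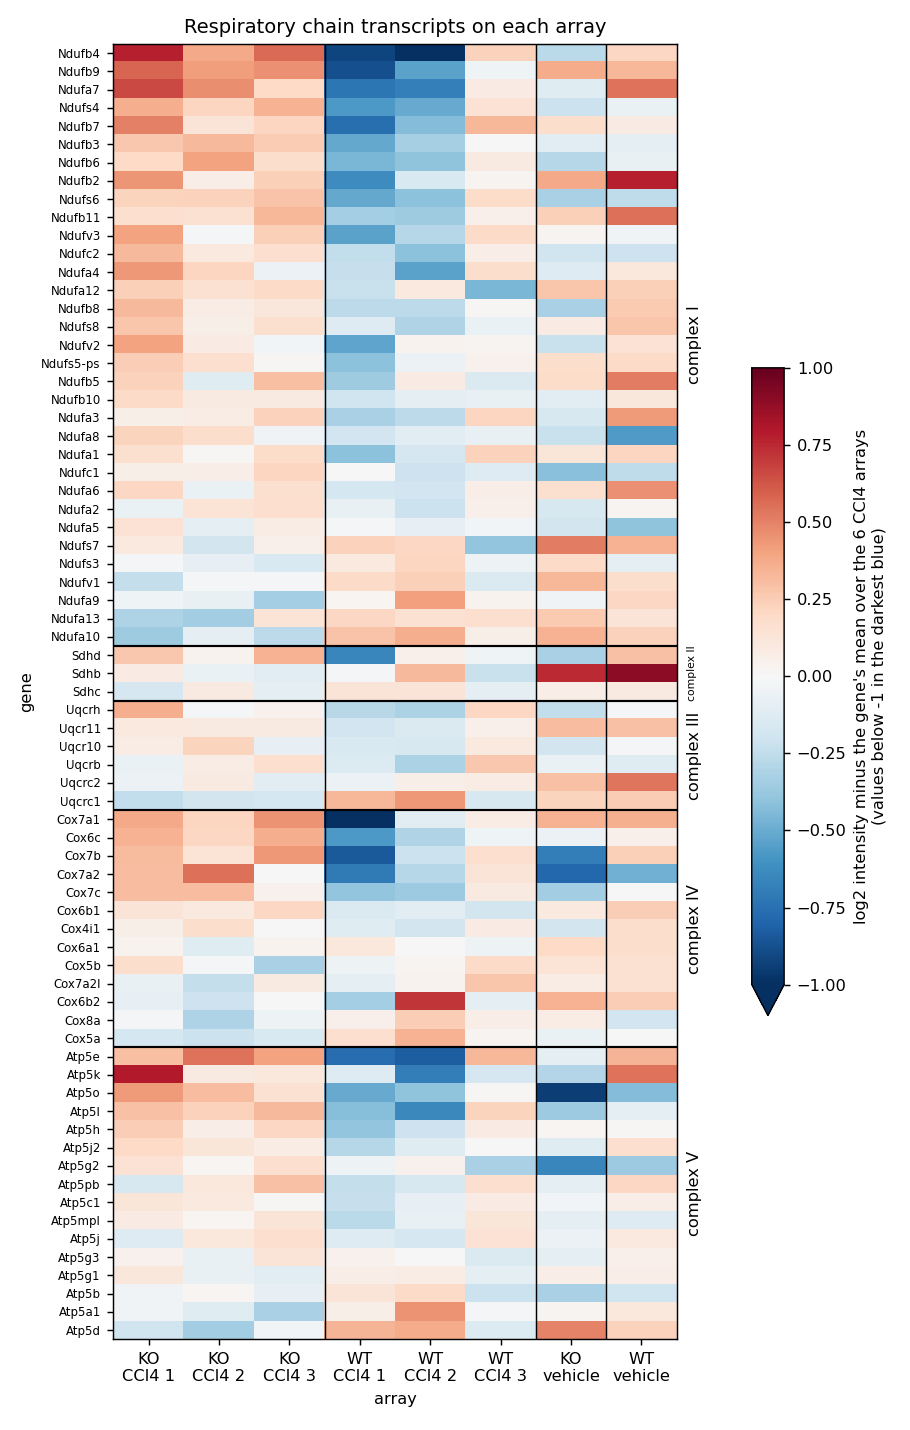
Normalized log2 intensity of the 71 tested genes (rows, by complex, ordered by the genotype difference after CCl4) on each of the 8 arrays (columns), shown as the difference from the gene's mean over the 6 CCl4 arrays. Red is higher and blue lower. Many complex I rows are red on the knockout CCl4 arrays and blue on replicates 1 and 2 of the wild type, and replicate 3 of the wild type is paler.

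After CCl4, the knockout liver had higher transcripts of 3 complex I accessory subunits than the wild-type liver, and no member was lower. These were Ndufb4, Ndufb9 and Ndufa7, subunits without a redox centre, of which Ndufb4 and Ndufb9 sit in the membrane arm. The 3 rises among 71 members stand against 2.89% of all tested genes called higher, and the 0 falls against 3.60% called lower. Of the 71 fitted differences 51 were above 0, against 48.4% of all genes, and the median was 0.24 on the log2 scale against -0.013. An unadjusted p under 0.05 was reached by 25 members (35.2%), against 25.2% of all genes. In bulk tissue, fewer cells of a type and less RNA per cell cannot be told apart.

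Ndufb4 read 10.75, 10.35 and 10.54 on the knockout CCl4 arrays, against 9.05, 8.94 and 10.20 on the wild-type ones. The knockout values were all above the wild-type values, but replicate 3 of the wild type came close to the lowest of them. Ndufb4 averaged 10.55 ± 0.20 in the knockout and 9.40 ± 0.70 in the wild type after CCl4 (SD, n = 3 each), a difference of 1.15 ± 0.29 (SE) or 2.22-fold (adjusted p = 0.0403, limma).

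Ndufb9 read 12.29, 12.12 and 12.16 in the knockout, against 10.82, 11.17 and 11.66 in the wild type. The groups did not overlap, and the vehicle arrays, at 12.07 in the knockout and 12.03 in the wild type, lay near the knockout CCl4 level. Its difference was 0.97 ± 0.20, or 1.96-fold (adjusted p = 0.0229, limma). Ndufa7 read 12.71, 12.51 and 12.25 in the knockout, against 11.33, 11.37 and 12.13 in the wild type. Here again the groups did not overlap and wild-type replicate 3 was close to the lowest knockout value. Its difference was 0.88 ± 0.23, or 1.84-fold (adjusted p = 0.0439, limma).

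The calls between the genotypes rest on few arrays. With wild-type replicate 3 left out, 16 members were higher in the knockout and 1 was lower, against 11.1% of all genes called in either direction (451 higher, 360 lower). Replicate 3 was picked out by its values for these same genes, so a larger count without it was to be foreseen and gives no separate support. With wild-type replicate 2 left out only Ndufb9 was called, and with wild-type replicate 1 or any 1 of the knockout CCl4 arrays left out the count was 0.

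Without wild-type replicate 3 the genes higher in the knockout held 9 of the 33 complex I genes, all accessory: Ndufb4 (1.56), Ndufb9 (1.19), Ndufa7 (1.14), Ndufb7 (0.88), Ndufs4 (0.84), Ndufs6 (0.71), Ndufb3 (0.70), Ndufb6 (0.69) and Ndufb11 (0.57), each as a log2 difference. The Ndufb11 probe was dim, with levels near the lowest detected. Ndufs4 and Ndufs6 are accessory subunits of the matrix arm that are needed for a stable complex, and mutations of either are known in human complex I deficiency. In complex IV, Cox7b (0.83), Cox7a2 (0.78), Cox6c (0.75) and Cox7c (0.60) were higher, all small single-span subunits around the catalytic core. In complex V, Atp5e (1.22), the epsilon subunit of the central stalk, Atp5l (0.82), the membrane subunit g, and Atp5o (0.75), which joins the F1 head to the peripheral stalk, were higher. The only decrease was Uqcrc1 (-0.58), a core protein of complex III.

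**Figure D2:**
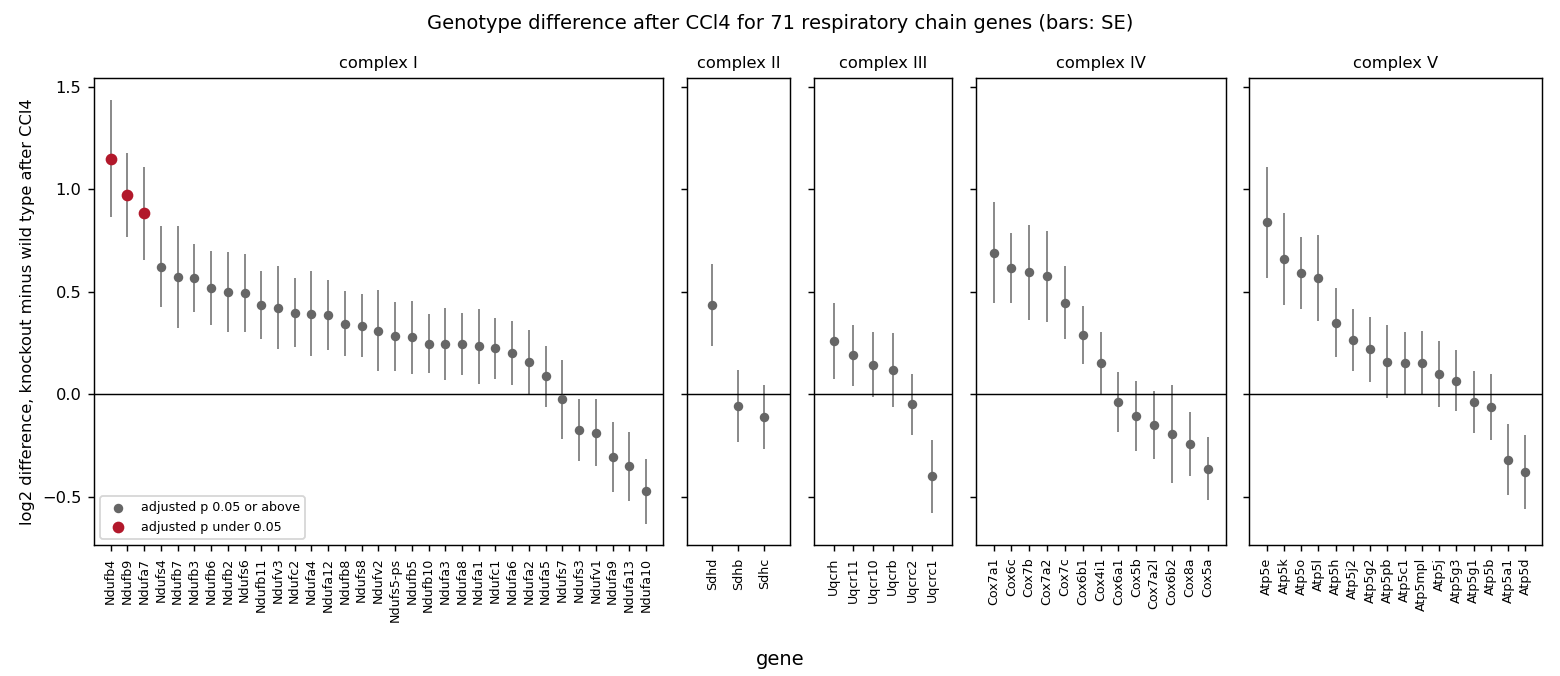
Log2 difference between knockout and wild type after CCl4 (y axis) for each of the 71 tested genes (x axis) by complex, with bars for the SE. The 3 red points, Ndufb4, Ndufb9 and Ndufa7, had an adjusted p under 0.05. Most complex I points lie above 0, and Ndufa10 is the lowest at -0.47.

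Within complex I the subunits with and without a catalytic role are described apart. Genes were put into complexes by name alone and not by where their proteins sit, and the 28 counted as accessory include Ndufa4 and the pseudogene Ndufs5-ps. These 28 genes had a median difference of 0.36, with 25 above 0 and 3 called. The 5 core subunits, which carry the flavin, the iron-sulfur clusters or the quinone site (Ndufv1, Ndufv2, Ndufs3, Ndufs7 and Ndufs8), had a median of -0.026, with 2 above 0 and none called. The difference between these subunit groups was not tested. Ndufv1, the core subunit that binds the flavin, read 11.64, 11.86 and 11.86 in the knockout, against 12.07, 12.12 and 11.73 in the wild type, so the groups overlapped. Without wild-type replicate 3 the medians were 0.43 and -0.23. The lowest member was Ndufa10, an accessory subunit, at 10.93, 11.20 and 11.03 in the knockout, against 11.58, 11.66 and 11.35 in the wild type. All knockout values of Ndufa10 were below the wild-type values, and the difference of -0.47 ± 0.16 did not pass (adjusted p = 0.0975, limma).

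Values on every knockout CCl4 array above every wild-type CCl4 array were found for 24 of the 71 members, against 14.0% of all tested genes, and values below for 7, against 16.3%. Of the 24, complex I held 16 (15 accessory and 1 core), complex III 1, complex IV 3 and complex V 4. Of the 7, complex I held 3, complex III 1, complex IV 2 and complex V 1. These shares use the same arrays as the fitted differences and give no separate support.

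No gene of complex II passed between the genotypes. Sdhb carries the iron-sulfur clusters of succinate dehydrogenase, and Sdhc and Sdhd anchor the enzyme in the membrane. Sdhb differed by -0.06 ± 0.17 between knockout and wild type after CCl4 (adjusted p = 0.861), Sdhc by -0.11 ± 0.16 (adjusted p = 0.695) and Sdhd by 0.44 ± 0.20 (adjusted p = 0.204, limma for all). Without wild-type replicate 3 the values of Sdhb, Sdhc and Sdhd were -0.18, -0.19 and 0.52, and none passed. Sdhd read 11.31, 11.07 and 11.38 in the knockout, against 10.38, 11.08 and 10.99 in the wild type, and the groups overlapped. Sdha, the flavin subunit, is not analysed here.

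In complex III the 2 core proteins Uqcrc1 and Uqcrc2 had a median genotype difference of -0.23 and the 4 small subunits one of 0.17 (0.27 without wild-type replicate 3), and none was called. In complex IV the 11 tested genes of the ubiquitous or liver forms had a median of 0.15, and in complex V the median was 0.064 (0.0088 without that array) for the 3 genes of the c ring, 0.25 for the 4 of the peripheral stalk and 0.42 for the 4 small membrane subunits. The 5 F1 genes had -0.065, and -0.18 without wild-type replicate 3, and the sign turned (0.03) when each array was scaled to one median. That scaling moved the median of all genes to -0.17 and called 172 genes higher and 706 lower, in place of 210 and 261, with 4 members higher and 0 lower. The largest differences in complexes IV and V, none of which passed, were those of Atp5e (0.84 ± 0.27, adjusted p = 0.0866), Cox7a1 (0.69 ± 0.25, 0.116), Atp5k (0.66 ± 0.23, 0.104) and Cox6c (0.61 ± 0.17, 0.0562, limma for all). Atp5k, 1 of the 4 small membrane subunits, was detected on 1 knockout and 0 wild-type CCl4 arrays, so its value compares readings mostly at background.

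Most of these transcripts had fitted CCl4 changes near 0, and as the mean of both genotypes 3 members rose and 3 fell. Sdhb, Ndufb2 and Uqcrc2 fell, and Atp5o, Cox7a2 and Atp5g2 rose. The 3 rises of 71 members stand against 18.9% of all tested genes, and the 3 falls against 18.6%. Of all tested genes, 582 (8.02%) passed the detection filter only through a lone vehicle array, where they had to be high, and Atp5k is the 1 member among them. Without these genes the shares were 20.5% and 16.2%. No member had a fitted change of 1 or more on the log2 scale, against 12.4% of all genes, and the member range was -0.82 to 0.69. The 95% interval of the change lay within 1 of 0 for 67 of 71 members, against 70.5% of all genes. The median absolute change was 0.168 among members and 0.367 among all genes, and the median signed change was -0.03 against -0.02.

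Sdhb read 10.69, 10.54 and 10.50 on the knockout and 10.59, 10.93 and 10.39 on the wild-type CCl4 arrays, against 11.35 on the knockout and 11.51 on the wild-type vehicle array. All 6 CCl4 values were below both vehicle values. The fitted change was -0.82 ± 0.17 (adjusted p = 0.00374, limma), a level 1.77-fold lower. Both Sdhb probes that were detected on all 8 arrays were called, with changes of -0.82 and -0.87. The call was kept under 15 of 15 other settings (-0.90 to -0.76). Among these, the settings without a vehicle array fitted the response of the other genotype alone. Its partners in the membrane anchor were not called: Sdhc had a fitted value of -0.08 ± 0.16 and Sdhd one of 0.02 ± 0.20. Sdhc read 11.32, 11.59 and 11.40 in the knockout and 11.63, 11.63 and 11.40 in the wild type after CCl4, against 11.56 in the knockout and 11.58 in the wild type after vehicle.

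Ndufb2, a complex I accessory subunit of the membrane arm, read 10.51, 10.13 and 10.30 in the knockout and 9.44, 9.91 and 10.09 in the wild type after CCl4, against 10.44 in the knockout and 10.84 in the wild type after vehicle. The wild-type CCl4 values were all below their vehicle value, and 1 knockout CCl4 value was above its own. The mean change was -0.58 ± 0.19 (adjusted p = 0.0359, limma). Uqcrc2, the second core protein of complex III, read 12.57, 12.71 and 12.53 in the knockout and 12.57, 12.69 and 12.70 in the wild type after CCl4, against 12.92 in the knockout and 13.16 in the wild type after vehicle. All its CCl4 values were below both vehicle values, and the change was -0.41 ± 0.15 (adjusted p = 0.0463, limma).

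Atp5o codes for the oligomycin sensitivity conferring protein at the top of the peripheral stalk. It read 9.18, 9.07 and 8.91 in the knockout and 8.26, 8.36 and 8.77 in the wild type after CCl4, against 7.81 in the knockout and 8.32 in the wild type after vehicle. The knockout CCl4 values were well above the knockout vehicle value, while 1 wild-type CCl4 value was below the wild-type vehicle value. The mean change was 0.69 ± 0.18 (adjusted p = 0.01004, limma). Cox7a2, the widely used form of the complex IV subunit 7A, read 11.03, 11.27 and 10.72 in the knockout and 10.01, 10.43 and 10.85 in the wild type after CCl4, against 9.93 in the knockout and 10.23 in the wild type after vehicle. All knockout CCl4 values were above both vehicle values, and 1 wild-type CCl4 value lay between them. The change was 0.63 ± 0.22 (adjusted p = 0.0441, limma).

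The c ring of ATP synthase turns with the proton flow, and its single protein is coded by 3 genes. Atp5g2 read 10.89, 10.77 and 10.92 in the knockout and 10.70, 10.80 and 10.43 in the wild type after CCl4, against 10.10 in the knockout and 10.39 in the wild type after vehicle. All 6 CCl4 values were above both vehicle values, and the change was 0.51 ± 0.16 (adjusted p = 0.0265, limma). Atp5g1 read 12.94, 12.75 and 12.72 in the knockout and 12.89, 12.90 and 12.73 in the wild type after CCl4, against 12.89 in the knockout and 12.88 in the wild type after vehicle, a change of -0.07 ± 0.15 (adjusted p = 0.760, limma). Atp5g3 read 14.31, 14.19 and 14.40 in the knockout and 14.31, 14.27 and 14.13 in the wild type after CCl4, against 14.17 in the knockout and 14.32 in the wild type after vehicle. Its change was 0.02 ± 0.15 (adjusted p = 0.921, limma), and the difference between the 3 genes was not tested.

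The mean response rests on both vehicle arrays. With 1 vehicle array left out, only the response of the other genotype can be fitted. The members then called were those given below for that genotype alone, so these runs are no check of the mean. With any 1 knockout CCl4 array left out, 3 members were called for the mean of both genotypes, Sdhb and Atp5o among them each time.

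**Figure D3:**
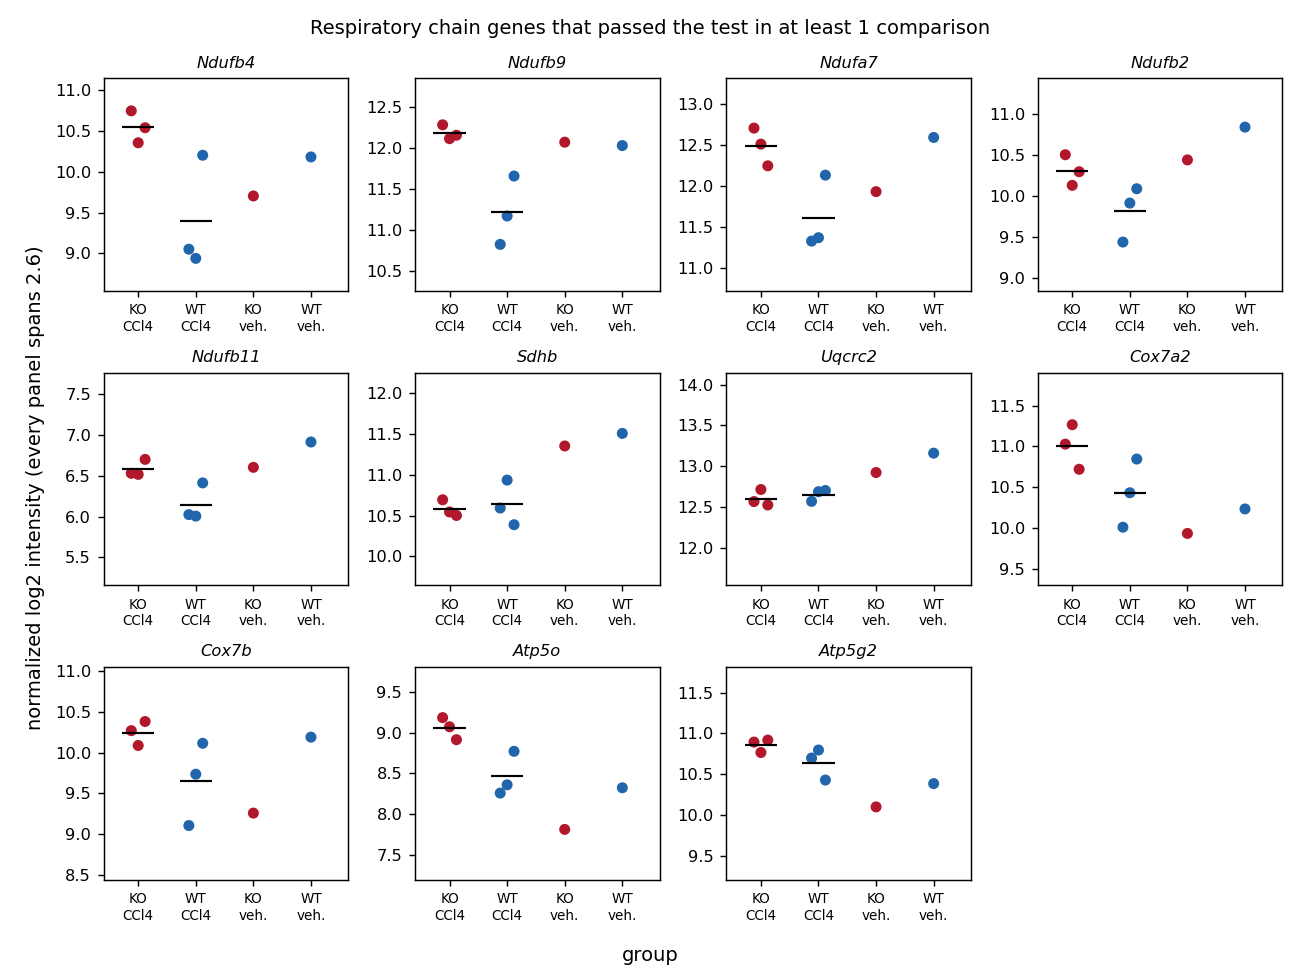
Normalized log2 intensity (y axis, the same span in every panel) of the 11 genes that passed the test in at least 1 comparison, by group (x axis). Points are arrays and lines are means of 3 arrays. Sdhb and Uqcrc2 lie lower on all CCl4 arrays than on both vehicle arrays, and 1 wild-type CCl4 point of Ndufb4 and of Ndufa7, replicate 3, lies apart from the other wild-type points.

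In the knockout, CCl4 raised 4 members and lowered 1. These 5 of 71 stand against 25.8% of all genes called in either direction. Atp5o rose by 1.24 ± 0.25 (adjusted p = 0.0048), Cox7a2 by 1.07 ± 0.31 (0.0284), Cox7b by 0.99 ± 0.33 (0.0457) and Atp5g2 by 0.76 ± 0.22 (0.0285), and Sdhb fell by 0.77 on the log2 scale (adjusted p = 0.0395, limma for all). Cox7b, a small subunit of complex IV, read 10.27, 10.09 and 10.38 after CCl4, against 9.26 after vehicle in the knockout. All its CCl4 values lay above the vehicle value. The median member change in the knockout was 0.13, against -0.0097 for all genes, and 43 of 71 members were fitted above 0. The Atp5o rise was called under 13 of 13 other settings, and with 1 knockout CCl4 array left out the count fell to 1 or 2. Without wild-type replicate 3, which bears on the shared spread, it was 8, and the share of all genes called in that run is not given here.

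In the wild type, CCl4 raised 0 members and lowered 4. These 4 of 71 stand against 24.0% of all genes called in either direction. Ndufb2 fell by 1.03 (adjusted p = 0.0193), Ndufa7 by 0.99 (0.0443), Sdhb by 0.87 (0.0257) and Ndufb11 by 0.77 (0.0355) on the log2 scale (limma for all). Ndufa7 read 11.33, 11.37 and 12.13 after CCl4, against 12.60 after vehicle. Ndufb11, a membrane-arm subunit, read 6.02, 6.01 and 6.41 after CCl4, against 6.91 after vehicle. The lowest detected levels on those CCl4 arrays were 5.91, 5.79 and 5.87, so this probe was dim. A second Ndufb11 probe, detected on 2 of 8 arrays and not tested, showed no clear fall. Its raw intensity was 89.9, 62.2 and 83.5 after CCl4 in the wild type, against 73.7 after vehicle. Ndufa7 and the tested Ndufb11 probe were below the vehicle value on every CCl4 array, with replicate 3 nearest to it. The median member change was -0.19, against -0.02 for all genes, and 54 of 71 members were fitted below 0. With median scaling, 5 members fell, while 1152 genes rose and 653 fell, in place of 897 and 845. Leaving out wild-type replicate 3 gave 8 falls, leaving out replicate 1 gave only Ndufb2, and leaving out knockout CCl4 replicate 2 gave Ndufb2 and Sdhb. Shares of all genes called in these leave-out runs are not given here.

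The direct test of the difference, the knockout response minus the wild-type response, called no member, against 0.358% of all tested genes. The lowest adjusted p of a member was 0.123, for Ndufa7 (limma), and 13 members (18.3%) had an unadjusted p under 0.05, against 19.9% of all genes. The members had a median difference of 0.38, against -0.02 for all genes, with 52 of 71 above 0. The largest values were those of Ndufb4 (1.63 ± 0.57), Ndufa7 (1.54 ± 0.45) and Cox7b (1.52 ± 0.46). Sdhb was among the smallest at 0.10 ± 0.35. Without wild-type replicate 3, Atp5e, Ndufa7 and Ndufb4 were called. The share of all genes called in that run is not given here, so these calls are not read as a result about the members. All these values share the 2 lone vehicle arrays.

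**Figure D4:**
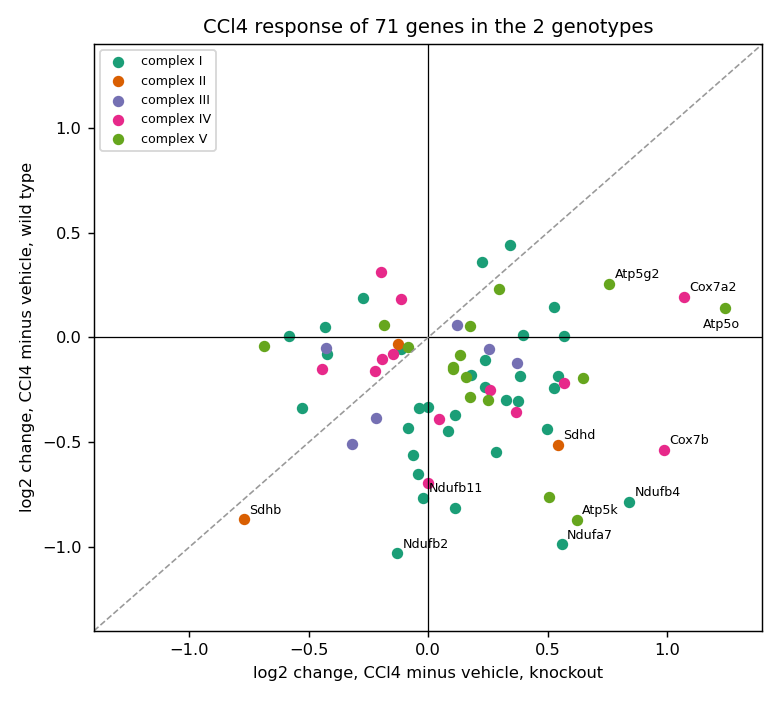
Log2 change, CCl4 minus vehicle, in the knockout (x axis) and in the wild type (y axis) for the 71 tested genes, coloured by complex, with a dashed line where both are equal. Most points lie below the line, Sdhb lies low on both axes, and Atp5o, Cox7a2 and Cox7b lie far right.

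The vehicle arrays, 1 per genotype and so without a test, differed the other way. The median difference, knockout minus wild type, was -0.15 over the 71 members, with 50 below 0, and -0.0086 over all genes. Values ran from -0.93 for Cox7b to 0.34. Cox7b read 9.26 on the knockout and 10.19 on the wild-type vehicle array. Ndufa7 read 11.93 in the knockout and 12.60 in the wild type, and Sdhd 10.71 in the knockout and 11.33 in the wild type. The knockout response to CCl4 is read against this lower vehicle array, and the wild-type response against the higher one.

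Medians over gene groups on each array follow. For the complex I accessory genes the median deviation from the CCl4 mean was 0.23, 0.12 and 0.19 on the knockout CCl4 arrays, against -0.33, -0.24 and 0.06 on the wild-type ones. On the vehicle arrays it was -0.11 in the knockout and 0.16 in the wild type. The wild-type vehicle array thus lay with the knockout CCl4 arrays. For the 5 core genes the values were 0.09, -0.02 and -0.02 in the knockout, against 0.09, 0.20 and -0.07 in the wild type, and the genotypes overlapped.

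**Figure D5:**
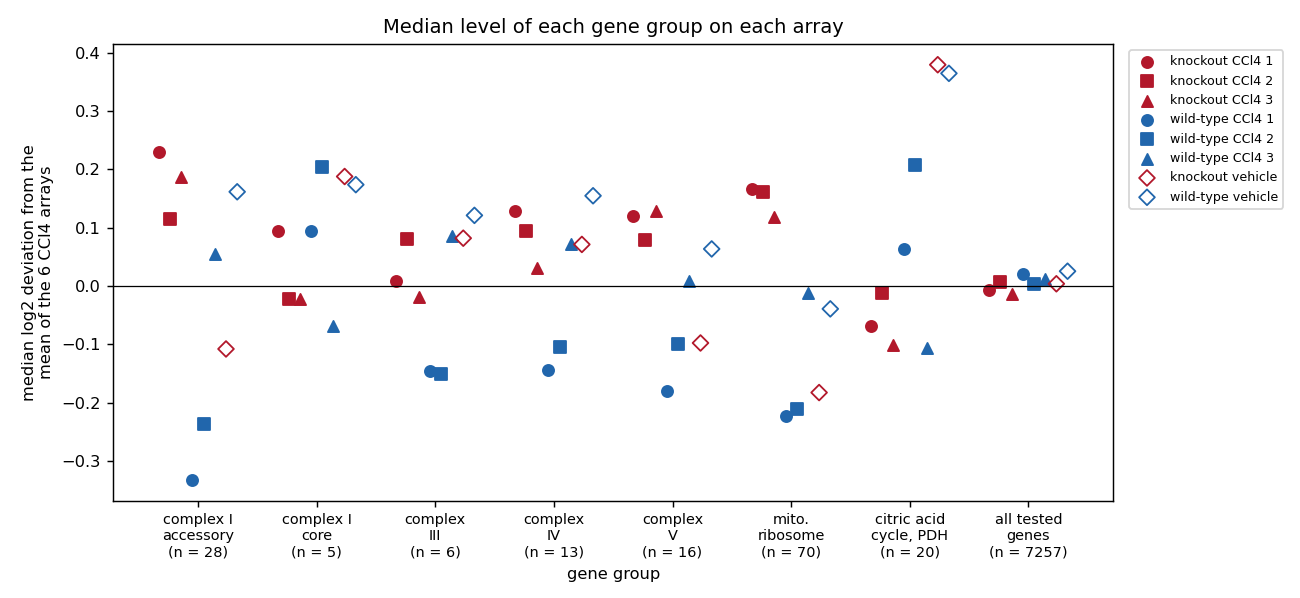
Median log2 deviation from the gene's mean over the 6 CCl4 arrays (y axis) for gene groups (x axis), with 1 point per array. Red marks the knockout and blue the wild type, and open diamonds are vehicle arrays. Complex I accessory and mitochondrial ribosome medians are above 0 on all 3 knockout CCl4 arrays and lowest on wild-type CCl4 replicates 1 and 2, and all tested genes stay near 0.

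Several subunits exist as tissue forms, and the detection of their probes is given here. A probe that is not detected does not show that the transcript is absent, since the hepatocyte markers Tat and Fgb were not detected either. Cox7b2, Cox4i2, Cox6a2, Cox8b and Cox8c, forms known from testis, lung, heart or skeletal muscle, were detected on 0 of 8 arrays, with lowest detection p-values of 0.404, 0.170, 0.024, 0.134 and 0.422 in that order. The ubiquitous or liver genes Cox4i1, Cox6a1, Cox7b and Cox8a were detected on all 8. A pair of other tissue forms, Cox7a1 of heart and muscle and Cox6b2 of testis, had a probe detected on all 8 arrays, although the marker genes of muscle and testis were not. The second Cox6b2 probe was detected on 0 of 8, with a lowest detection p-value of 0.0163, so the Cox6b2 probes disagree. Cox7a1 read 7.99, 7.83 and 8.06 in the knockout and 6.62, 7.51 and 7.69 in the wild type after CCl4, against 7.96 in the knockout and 7.97 in the wild type after vehicle. Wild-type replicate 1 was the low one, and the genotype difference did not pass (0.69 ± 0.25, adjusted p = 0.116, limma).

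Cox6b2 read 8.12, 8.0 and 8.21 in the knockout and 7.87, 8.92 and 8.12 in the wild type after CCl4, against 8.56 in the knockout and 8.45 in the wild type after vehicle. Its paralog Cox6b1 differed between the genotypes by 0.29 ± 0.14 (adjusted p = 0.237) and Cox6b2 by -0.19 ± 0.24 (adjusted p = 0.658, limma). Cox7a2l, the related gene of a factor that links complexes III and IV, read 10.50, 10.33 and 10.66 in the knockout and 10.49, 10.61 and 10.85 in the wild type after CCl4, against 10.64 in the knockout and 10.73 in the wild type after vehicle. It did not pass in either main comparison (genotype -0.15 ± 0.17, CCl4 -0.11 ± 0.17).

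The 3 other undetected genes, Ndufs1, Uqcrfs1 and Uqcrq, are subunits of every complex I or III, and their probes read as background. The Ndufs1 probe ran from 34.2 to 43.9 and the Uqcrq probe from 43.9 to 56.3 in raw intensity, so these probes say nothing of the genes' levels. Uqcrq lies on chromosome 11, with 5 protein-coding genes between it and the targeted Il4 and 6 between it and Il13 (RefSeq, GRCm38.p6). The dimmest tested member, Atp5k, the membrane subunit e, was detected on 1 of 3 knockout CCl4 arrays, 0 of 3 wild-type CCl4 arrays, 0 of 1 knockout vehicle array and 1 of 1 wild-type vehicle array, so its level in the undetected groups is only a bound. Among 11 members with several tested probes, 0 had probes called in opposite directions, while 2 had fitted genotype differences of opposite sign and 4 had fitted CCl4 changes of opposite sign. For Ndufv3, a dim probe detected on 2 of 8 arrays was called lower with CCl4 (-0.62), and the probe that stands for the gene read 0.00. With so few detections the dim probe can have passed the filter only through a lone vehicle array, where it had to be high. Its call therefore gives no support.

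Other genes of the pathway were read from lists of assembly factors (41 on the array, 36 tested), electron carriers and subunits outside the name patterns (20 and 19), regulators and mitochondrial DNA upkeep (19 and 14), the citric acid cycle with pyruvate dehydrogenase (23 and 20) and the mitochondrial ribosome (76 and 70). Between the genotypes after CCl4, 6 assembly factors were higher in the knockout and 0 lower, against 2.89% of all genes called higher, with a median of 0.23 that was 0.056 with median scaling. Among them were Tmem70 (0.88, adjusted p = 0.0114), which helps to build ATP synthase, Sdhaf3 (0.79, 0.0158), Ndufaf5 (0.93, 0.0242) and Coa4 (1.06, 0.0300). Of the mitochondrial ribosome genes, 4 were higher and 0 lower, with a median of 0.31 (0.18 with median scaling): Mrpl57 (0.78, 0.0196), Mrpl53 (0.92, 0.0302), Mrpl13 (0.65, 0.0403) and Mrpl15 (0.66, 0.0458). Without wild-type replicate 3, 12 assembly factors (33.3%) and 16 ribosome genes (22.9%) were higher, against 11.1% of all genes called in either direction. With 1 other CCl4 array left out at a time, each of these 8 named calls was lost at least once.

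In the 3 remaining lists no gene was higher in the knockout, where 2.89% of all genes were called higher and 3.60% lower. The carriers had 0 calls and a median genotype difference of -0.03 (-0.12 without wild-type replicate 3). The citric acid cycle list had 0 higher and 2 lower and a median of -0.08 (-0.16 without that array), the 2 being Ogdh (-0.68, adjusted p = 0.0488), a subunit of the oxoglutarate dehydrogenase complex, and Pdk4 (-1.16, 0.0373), a kinase that inactivates pyruvate dehydrogenase. Of the regulators, Hif1a was lower (-0.87 ± 0.15, adjusted p = 0.0108, limma for all), and the median of 0.19 turned to -0.01 with median scaling. Hif1a codes for the oxygen-sensitive subunit of hypoxia-inducible factor 1.

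CCl4 lowered 9 of the 20 citric acid cycle and pyruvate dehydrogenase genes (45%) and raised none, with a median of -0.40. Of all genes, 18.6% were called lower and 18.9% higher. The leading ones were Pdk2 (-1.59, adjusted p = 0.000192), another pyruvate dehydrogenase kinase, Dlat (adjusted p = 0.000443), the acetyltransferase of that complex, Pdp2 (-1.15, 0.00106), its phosphatase, and Cs (-0.95, 0.00197), citrate synthase. Dlat was detected on 0 of 6 CCl4 arrays and on both vehicle arrays, so its level after CCl4 is only a bound. Dlat and Pdk2 passed the filter only through the vehicle arrays, and without such genes 7 of 18 fell, against 16.2% of all genes. Among the 71 members 3 fell, and the difference between these lists was not tested. Of the 14 regulators 4 fell (28.6%) and 0 rose. The falls were led by Ppargc1b (-1.61 ± 0.18, adjusted p = 5.7e-05), a coactivator of mitochondrial genes, with Polg2 (-0.75, 0.00225), Gabpa (-0.76, 0.0063) and Hif1a (-0.60, 0.00976). Gabpa too passed the filter only through the vehicle arrays, and without such genes 3 of 12 regulators fell. Without the wild-type vehicle array, where only the knockout response is fitted, the value of Gabpa was 0.21. Nrf1 did not pass (0.36, adjusted p = 0.103, limma for all).

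Of the 19 carriers, 2 rose and 2 fell with CCl4 (10.5% each), against 18.9% of all genes called higher and 18.6% called lower. Coq7 (1.05, adjusted p = 0.000286), an enzyme of ubiquinone synthesis, and Atpif1 (0.96, 0.000637), the inhibitor of ATP synthase, rose. Etfdh (-0.80, 0.00242), which passes electrons from fatty acid oxidation to ubiquinone, and Coq9 (-0.62, 0.0224) fell. Assembly factors split into 3 higher, among them Coa3 (0.69, 0.00966) and Ndufaf5 (0.72, 0.0150), and 4 lower, among them Ndufaf1 (-0.59, 0.0115) and Ecsit (-0.54, 0.0138). These were 8.33% and 11.1% of the 36 tested, also below the shares of all genes. Of the 70 mitochondrial ribosome genes, 13 rose and 4 fell, shares of 18.6% and 5.71% that stand against 18.9% and 18.6% of all genes, with a median of 0.11, and Mrpl20 (0.98, 0.00132), Mrps6 (0.85, 0.00207), Mrps22 (0.74, 0.00227) and Mrps25 (0.75, 0.00242) led (limma for all). The median change of the ribosome list was 0.34 in the knockout and -0.14 in the wild type, and the difference between these medians was not tested.

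Markers of other liver cells were read beside these results. The summed linear level of the hepatocyte markers was 57146 to 59031 on the knockout and 56132 to 63572 on the wild-type CCl4 arrays, against 62887 on the knockout and 48945 on the wild-type vehicle array, with 0 of 6 tested called in either main comparison. The macrophage markers summed to 2495 to 3912 in the knockout and 2479 to 3596 in the wild type after CCl4, against 2451 in the knockout and 1979 in the wild type after vehicle, and 2 of 5 rose with CCl4. The endothelial markers summed to 470 to 502 in the knockout and 740 to 777 in the wild type after CCl4, against 554 in the knockout and 488 in the wild type after vehicle. Of the 3 tested, 2 (Stab2 and Lyve1) were lower in the knockout, against 3.60% of all genes, and 1 (Lyve1, 1.85) rose with CCl4. The erythroid markers summed to 6775 to 11433 in the knockout and 7652 to 17976 in the wild type after CCl4, against 11022 in the knockout and 19030 in the wild type after vehicle. Of the 3, Alas2 fell with CCl4 (-1.19, adjusted p = 0.0045, limma). Slc4a1 was called lower too (-0.81), but it was detected on 1 array alone. It read 118 in linear level on the wild-type vehicle array, 29.6 on the knockout vehicle array and 25.9 to 40.2 on the CCl4 arrays. Having passed the filter through a lone vehicle array, it was bound to read lower after CCl4, so this call gives no support. Of the 5 stellate cell markers, 1 (Col1a1) was lower in the knockout, and with CCl4 4 rose, Col1a1 among them, and 1 (Lrat) fell. Col1a1 and Lrat were each detected on 3 of 8 arrays. Col1a1 was highest on the wild-type CCl4 arrays (89.7 to 111 in linear level) and Lrat on the vehicle arrays (87.1 and 97.7). A gene that passes the filter through the group where it is high is bound to read lower elsewhere, so these calls give no support. The part of these cells in the members' values was not tested.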

How the data were processed

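Biotin-labelled cRNA was made from Trizol-extracted, column-cleaned RNA, per the labels' protocols. The authors deposited linear bead intensities that were not normalized between arrays, 1 for each probe, and per the file headers each intensity has a detection p-value. For the scanner software and any earlier background step, the sources used here say nothing. The authors' deposited value table equals the raw intensity minus 1 constant per array (48.6 to 56.8), with column medians of 12.3 to 20.0. Its scale is linear, its direction is that of the raw values, the reason for the constant is unknown, and it served only as an alternative.

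Intensities were background-corrected, quantile-normalized and put on a log2 scale with neqc (limma 3.58.1, R 4.3.3, offset 16), with negative controls inferred from the deposited detection p-values. The filter left 10128 probes, from which 7257 genes were each represented by their brightest probe on average. Symbols came from the platform annotation. A model of 4 group means over the 8 arrays was fitted with limma's lmFit and eBayes. Tests were 2-sided, p-values were adjusted after Benjamini and Hochberg, and the threshold was 0.05. The 4 residual degrees of freedom came from the CCl4 arrays, and the number of arrays limits the precision. The fit was tested on simulated data. Same-numbered CCl4 arrays did not deviate together across genotypes (correlations of deviations from -0.12 to -0.01), so replicate numbers were not taken as pairs.

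The members and lists were chosen with earlier results of these data known. Named with values were, per comparison, the up to 3 largest rises and falls called in each complex, all Sdh genes, all tissue forms, Uqcrq, and from each other list up to 4 genes with the smallest p; other members named were chosen after their values were seen. Lists were described by counts and medians without a test. Alternatives were median scaling, the deposited values, no filter or detection on 3 arrays, an offset of 50, each probe by itself, a trended robust eBayes, the replicate number as a block, and leaving out each array. Protein sequences were not used here.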

Additional observations from a re-analysis of the deposited data

How the results depend on the processing

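Counts of called members moved with the settings, and no named call of a member turned its sign under any setting run. The share of all genes called is not set beside each count, so the counts show only how the calls moved. Between the genotypes (3 called) the deposited values gave 1, no filter 0, an offset of 50 gave 6 and a trended robust eBayes 6. Without 1 CCl4 array each the count ran from 0 to 17. For CCl4 as the mean of both genotypes (6 called) testing each probe by itself gave 10 probes and the replicate block 1 (Sdhb), and the counts without 1 array each ran from 3 to 7. In the wild type (4 called) no filter gave 0 and the replicate block 2, with 1 to 8 without 1 array each. In the knockout (5 called) no filter gave 2, each probe by itself 8 and the replicate block 2, with 1 to 8 without 1 array each. The difference of the responses gave 0 under every other setting and 0 to 3 without 1 array each. The replicate block gave 3 between the genotypes and 0 for the difference of the responses. The replicate numbers were not taken as pairs, and the cause of these moves was not tested, beyond the larger number of genes tested without a filter (16593). The member median between the genotypes stayed above 0 under all 14 settings (0.17 to 0.28), and that of the difference of the responses did too (0.34 to 0.49). Ndufb9 was called between the genotypes under 8 of 13 settings, Ndufa7 under 6 and Ndufb4 under 5. Of the named calls of the other lists, 1 of 11 between the genotypes and 6 of 20 for CCl4 were called under every setting. Gabpa was the 1 that turned its sign, at -0.93 without the knockout vehicle array and 0.21 without the wild-type one. With a vehicle array left out only the response of the other genotype was fitted, so these are the wild-type and the knockout response. Precision was limited by 3 CCl4 arrays per genotype and 1 vehicle array per genotype, and dim probes such as that of Atp5k by their signal over background.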
